A study of Saccharomyces cerevisiae with 24 samples.

Results

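The subject of these data is how the effect of the H3L126M mutation on mRNA levels depended on the carbon source in budding yeast. It was taken from all libraries of H3L126M and WT in both media, which are 16 of the 24 libraries of the series, 4 for each strain and medium. The other 8 are libraries of a different mutant, H3L126H, and were used only in an alternative fit. H3L126M cells in YPEG, WT cells in YPEG, H3L126M cells in YPD and WT cells in YPD were compared. YPEG is an oxidative medium with ethanol and glycerol as carbon sources, and YPD is a fermentative medium with glucose. Both strains are haploid MATa and come from BY4741 of the S288C background, with the markers his3Δ1 leu2Δ0 met15Δ0 ura3Δ0, through the strain OCY1131, in which a deletion of *HHT2* had been put back, (hht2Δ::ura3)Δ::*HHT2*. In H3L126M the leucine was replaced by methionine in both histone H3 genes, *HHT1* and *HHT2*, by CRISPR-Cas9 editing. As far as the sources say, each strain is 1 line, so a change acquired by that line after the edit cannot be told apart from an effect of the mutation. RNA came from 4 replicate experiments, and nothing in the sources says which cultures were grown together. The p values therefore measure only the spread between these libraries.

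Leucine 126 of histone H3 lies next to the site at which the protein binds and reduces copper, and copper in turn is needed for iron uptake and for cytochrome c oxidase. When yeast use ethanol and glycerol, they respire, run the glyoxylate cycle and gluconeogenesis, and take up more iron for heme and iron-sulfur proteins. When they use glucose, they ferment and repress these pathways. Iron genes are driven by Aft1, phosphate genes by Pho4, amino acid genes by Gcn4, phospholipid genes by Ino2 and Ino4, and genes of the G1 to S transition by the factors SBF and MBF.

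Totals per library ranged from 8570789 to 13133489 counts, and 6030 of 6692 ORFs passed the filter on low counts. *URA3* and *MET17*, which BY4741 lacks, had 0 counts in all 16 libraries and *LEU2* had at most 1. The edit itself cannot be seen in a table of counts and was not checked. The replicates did not scatter evenly. In both WT groups, replicates 1 and 2 stood apart from replicates 3 and 4. In H3L126M the split was less clean. By the chi-square per gene between the counts of a pair of libraries, H3L126M in YPEG replicate 1 was nearer to replicate 3 (20.33) than to replicate 2 (31.18), and H3L126M in YPD replicate 3 was nearer to replicates 1 and 2 (12.62 and 15.96) than to replicate 4 (26.01). In all 4 groups the deviations from the group mean correlated with r between 0.0137 and 0.725 within these pairs of libraries and between -0.365 and -0.891 across them, where part of the negative sign follows from centring on 4 libraries. The pairs were farthest apart in WT in YPD (0.725 and 0.636 within). For many genes the sets lay in opposite directions in the strains, so most of the main results are also given from replicates 1 and 2 alone and from replicates 3 and 4 alone. These sets share no library, and each of them leaves 2 libraries a group.

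The strain effect depended on the medium for 920 of 6030 genes at an adjusted p below 0.05, which is 15.3% of those tested. This interaction is the log2 fold change of H3L126M over WT in YPEG minus that in YPD. It was above 0 for 403 genes (6.68%) and below 0 for 517 (8.57%), and for 231 (3.83%) it was at least 2-fold. In YPEG itself 1921 genes (31.9%) differed between H3L126M and WT, 876 higher (14.5%) and 1045 lower (17.3%), against 491 (8.14%) in YPD, 292 higher (4.84%) and 199 lower (3.3%). At least 2-fold were 262 genes in YPEG (4.34%) and 131 in YPD (2.17%). The median size of the strain effect over all tested genes was 0.244 on the log2 scale in YPEG and 0.152 in YPD. The count of 920 fell by over 1.5 times when 1 of 6 libraries was left out. It was 519 without H3L126M in YPEG replicate 1, 537 without WT in YPEG replicate 3, 558 and 571 without H3L126M in YPD replicates 1 and 2, and 597 and 537 without WT in YPD replicates 1 and 2, while it lay between 648 and 1365 without any 1 of the others. Of the 920 calls, 464 held whichever library was left out. Replicates 1 and 2 alone gave 1999 calls and replicates 3 and 4 alone 1561, of which 578 were shared, 437 with the same sign and 141 with opposite signs. The genes called with the same sign in both sets included 403 of the 920.

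From 16 libraries, most of the 920 genes were classed as having gained an effect in YPEG. A gene was counted as gained when H3L126M differed from WT in YPEG only, as lost when the strains differed in YPD only, and as reversed when they differed in both media with opposite signs. The effect was gained for 641 genes (10.6% of all tested), 241 higher and 400 lower in H3L126M in YPEG. It was lost for 124 (2.06%), 56 higher and 68 lower in H3L126M in YPD, and reversed for 35 (0.58%), of which 21 were higher and 14 lower in H3L126M in YPEG. In 22 genes (0.365%) the effect had the same sign in both media but was larger in YPEG, in 16 (0.265%) it was smaller, and in 82 (1.36%) neither medium alone passed the test. The classes depended on the libraries used. Of the 641 gained genes 103 were classed as gained in both sets of replicates, and of the 124 lost genes 28 as lost. Replicates 1 and 2 alone gave 720 gained, 547 lost and 491 reversed of 1999 called genes. Replicates 3 and 4 alone gave 1006, 243 and 138 of 1561. A call in 1 medium alone often came without a called difference between media. The interaction passed for 38.29% of the 1674 genes called in YPEG only, and for 50.82% of the 244 called in YPD only. A further 174 genes were called in both media with the same sign and without an interaction, 127 higher and 47 lower in H3L126M. Over all genes the effects in YPEG and in YPD, which share no library, had a Pearson r of 0.275 and a Spearman rho of 0.106 across genes, which are not independent replicates, and 51.8% of genes had the same sign.

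**Figure D1:**
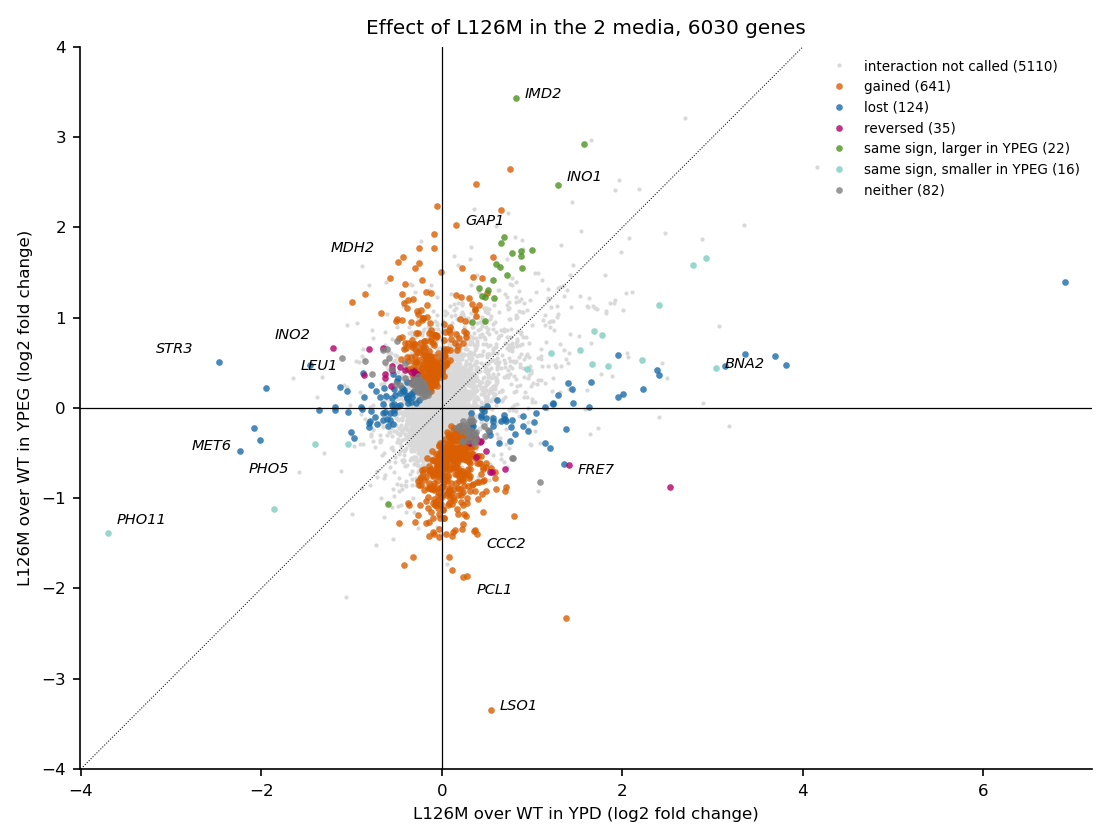
Effect of H3L126M over WT in YPEG (y axis, log2 fold change) against the effect in YPD (x axis, log2 fold change) for 6030 genes. Each point is 1 gene, coloured by class, and the dotted line marks equal effects; the 641 gained genes lie along the vertical axis, the 124 lost genes along the horizontal axis, and the point farthest right is PAU10, a fitted value against a group with 0 counts.

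These classes differed in how WT itself used the genes. Of the 56 genes with a lost rise, 54 were more highly expressed in YPEG than in YPD in WT, with a median log2 difference of 1.55. Of the 68 genes with a lost fall, 13 were higher in YPEG in WT, with a median of -0.706. The genes that H3L126M raised in YPD only were thus mostly genes that WT used more in YPEG, and those it lowered in YPD only were mostly genes that WT used less there. The medians were -0.316 for genes with a gained rise and 0.152 for genes with a gained fall. These values share the WT libraries with the strain effects and are given as a description. A low WT level in YPD raises both the strain effect in YPD and this difference, so they are not independent. The same values were not taken over all tested genes.

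The gained rises included enzymes that make sugar from C2 compounds. *MDH2* (YOL126C, chrXV:81787-82920) encodes the cytosolic malate dehydrogenase of gluconeogenesis. Its normalized counts, which are counts scaled by TMM to the mean library size, were 10729, 10871, 9358 and 6936 in H3L126M in YPEG, against 2924, 3762, 2493 and 2707 in WT in YPEG. In YPD they were 1092, 897, 1028 and 1103 in H3L126M, against 1373, 1183, 1515 and 1499 in WT. The strains did not overlap in either medium, and they lay in opposite order. The log2 fold change was 1.67 in YPEG and -0.43 in YPD (interaction 2.11, SE 0.21, adjusted p = 2.09e-05). *ICL1*, the isocitrate lyase of the glyoxylate cycle, had 52446, 46551, 51498 and 39731 in H3L126M in YPEG, against 20407, 22828, 17892 and 21701 in WT. In YPD, where glucose represses it, *ICL1* had 298, 305, 386 and 319 in H3L126M, against 391, 392, 465 and 457 in WT (interaction 1.58, SE 0.18, adjusted p = 6.60e-05). The interaction of *MDH2* was 2.03 from replicates 1 and 2 and 2.13 from replicates 3 and 4, and that of *ICL1* 1.55 and 1.58.

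Of 24 tested genes of gluconeogenesis and the glyoxylate cycle, 6 had a higher interaction and 1 a lower one. This was 29.2% called, beside 15.3% of all tested genes. The list median was 0.32, beside 0.0033 over all genes. *CIT2*, the peroxisomal citrate synthase, had an interaction of 2.11 (adjusted p = 0.0205), 2.78 from replicates 1 and 2 and 1.38 from replicates 3 and 4, where it did not pass (adjusted p = 0.0502). The acetyl-CoA synthetase gene *ACS1* and the acetate transporter gene *ADY2* had 1.01 and 1.11, and their calls were lost without H3L126M in YPEG replicate 1, among others (highest adjusted p 0.0548 and 0.0964). Their effects were called in YPEG only. *CAT2*, the carnitine acetyltransferase, was the 1 lower member (interaction -0.83), with a rise in YPD only, and its call was lost without H3L126M in YPEG replicate 1, among others (highest adjusted p 0.0709). *PCK1*, which encodes the committed enzyme of gluconeogenesis, had effects of 1.76 in YPEG and 0.90 in YPD, and its interaction of 0.87 did not pass (adjusted p = 0.118). The list count rested on which libraries were used. It fell to 3 or 4 in all without H3L126M in YPEG replicate 1, WT in YPEG replicate 3, or H3L126M in YPD replicate 1 or 4. It was 15 higher and 3 lower from replicates 1 and 2, and 3 higher and 4 lower from replicates 3 and 4, with 2 members higher in both.

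A nitrogen permease and cell wall genes also gained a rise in YPEG. *GAP1*, the general amino acid permease, had 2367, 1941, 1989.8 and 1485 normalized counts in H3L126M in YPEG, against 516, 563, 371 and 458 in WT. In YPD *GAP1* had 180.4, 181, 158 and 144 in H3L126M, against 123, 132, 166 and 173 in WT (interaction 1.88, SE 0.22, adjusted p = 9.87e-05). The strains were apart in YPEG and overlapped in YPD. *DUR1,2*, which degrades urea, was raised in both media and more in YPEG (1.90 in YPEG and 0.69 in YPD, interaction 1.21), while *DAL1*, the allantoinase, was raised in YPD only (0.05 in YPEG and 1.46 in YPD, interaction -1.40). Of 32 genes under nitrogen catabolite repression 28.1% were called, beside 15.3% of all tested genes. Their interaction was higher for 7 and lower for 2 (10 and 4 from replicates 1 and 2, 6 and 1 from replicates 3 and 4). *PRM5*, a membrane protein gene induced by cell wall stress, had 911, 848, 1006 and 837 in H3L126M in YPEG, against 267, 232, 179.7 and 270.0 in WT. In YPD *PRM5* had 1137, 880.1, 1423 and 1281 in H3L126M, against 1597, 1652, 926 and 857 in WT (interaction 2.02, SE 0.29, adjusted p = 5.06e-04). Its YPD values ran in opposite directions in the sets of replicates. *TIP1*, a cell wall mannoprotein gene, had an interaction of 1.08 (SE 0.14), 1.06 and 1.08 in the sets. Of 25 cell wall integrity genes 32% were called, beside 15.3% of all tested genes. Their interaction was higher for 8 and lower for 0 (18 and 2 from replicates 1 and 2, 7 and 1 from replicates 3 and 4). This count fell to 3 or 4 without H3L126M in YPEG replicate 1, WT in YPEG replicate 3, or replicate 1 or 2 of either strain in YPD. The kinase gene *SLT2* itself had 1.06 from 16 libraries and 0.01 from replicates 3 and 4, and its call was lost without H3L126M in YPEG replicate 1, among others. Of 28 oxidative stress genes 42.9% were called, beside 15.3% of all tested genes. They were 12 higher and 0 lower, 1 of them by at least 2-fold, and 3 were higher in both sets. This count fell to between 5 and 7 without H3L126M in YPEG replicate 1, 3 or 4, WT in YPEG replicate 3, H3L126M in YPD replicate 1, 2 or 4, or WT in YPD replicate 1 or 2.

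Among the genes with a gained rise that stood apart in every YPEG library and averaged at least 100 normalized counts in a group, the 5 with the largest interaction were *YNL194C*, *ARG3*, *YMR084W*, *MDH2* and *AIM17*. *ARG3*, the ornithine carbamoyltransferase of arginine synthesis, had 81.3, 61.1, 132 and 113 in H3L126M in YPEG, against 39.3, 59.0, 26.4 and 48.9 in WT, and 33.0, 48.1, 138 and 101 in H3L126M in YPD, against 136, 193, 134 and 180.0 in WT (interaction 2.17, SE 0.52, adjusted p = 0.0122). Its interaction was 2.54 and 2.10 in the sets, but its parts differed. The YPEG effect of *ARG3* was 0.52 and 1.72 in the sets, and its YPD effect, not called from 16 libraries, was -2.02 and -0.37. From replicates 1 and 2 the interaction was thus mostly a fall in YPD. *YNL194C*, a membrane protein gene, and *AIM17*, a mitochondrial protein gene, were less stable in the size of the interaction. Their interactions of 2.30 and 2.03 came to 3.85 and 3.12 from replicates 1 and 2, and to 0.20 and 0.29 from replicates 3 and 4. Both calls were lost without H3L126M in YPEG replicate 1, among others (highest adjusted p 0.0897 and 0.0786). *YMR084W* had 2.11, with 2.75 and 1.15 in the sets.

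**Figure D2:**
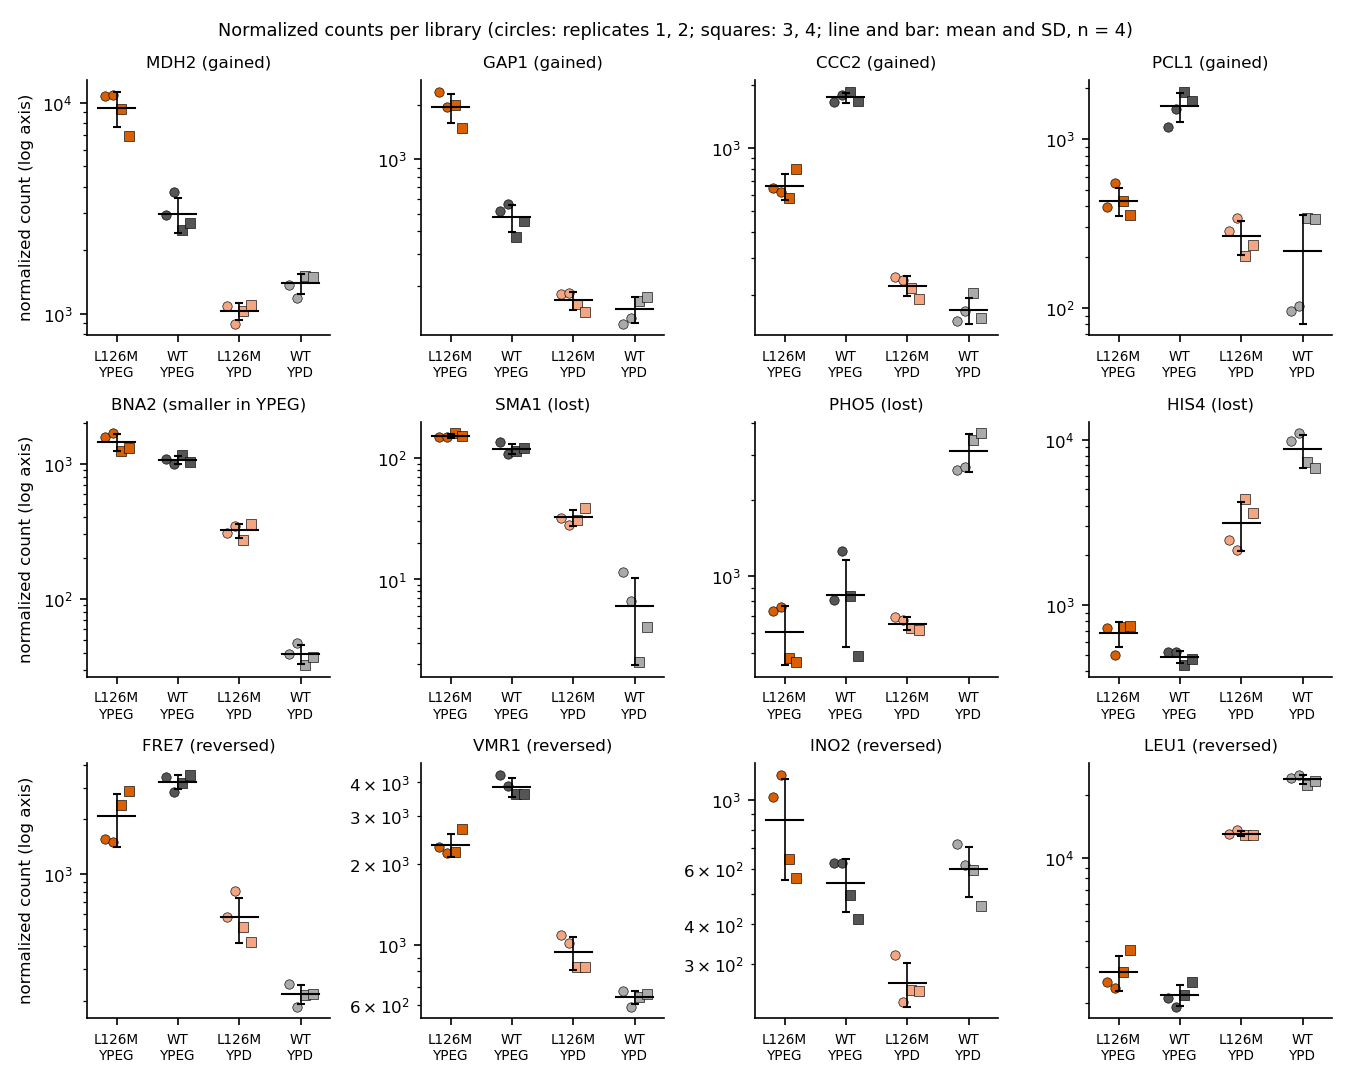
Normalized counts (y axes, log scale) of 12 genes in every library of H3L126M and WT in YPEG and in YPD, with circles for replicates 1 and 2 and squares for replicates 3 and 4. Lines and bars are the mean and SD of 4 libraries; MDH2, GAP1, CCC2 and PCL1 separate by strain in YPEG, SMA1, PHO5 and HIS4 in YPD, and FRE7, VMR1, INO2 and LEU1 lie in opposite order in the media.

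Iron genes gained a fall in YPEG. Of 31 tested genes of the iron regulon, 18 had a lower interaction (58.1%, beside 8.57% of all tested genes) and 0 a higher one. This was the largest share of lower interactions among the 33 lists, and the list median was -0.73. Larger shares came from 2 further lists that were drawn up after the values were seen. These were 15 of 24 genes of the G1 to S transition and 12 of 18 *UTP* genes of ribosome assembly, with 0 higher in both. They had 21 and 17 lower with only WT replicates 1 and 2, and 10 and 7 with only WT replicates 3 and 4. At the same settings the iron list had 19 lower and 1 higher, and 9 lower and 1 higher. In YPEG 24 of the iron genes were lower and 1 higher in H3L126M, beside 17.3% and 14.5% of all tested genes. The median effect of the iron genes was -0.63 in YPEG and 0.05 in YPD. Replicates 1 and 2 gave 22 lower and 1 higher, replicates 3 and 4 gave 12 lower and 1 higher, and 10 were lower in both. The summed normalized count of the list was 95135 to 113669 in H3L126M in YPEG, against 138748 to 208640 in WT in YPEG. In YPD it was 18937 to 26117 in H3L126M, against 18876 to 24348 in WT. WT thus used these genes far more in YPEG than in YPD, and the strains did not overlap in YPEG but did in YPD. Because RNA was measured over whole cultures, fewer cells that express a gene and less RNA per cell cannot be told apart, here and for the groups that follow.

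The sequences of this group are shown because these genes share the motif TGCACCC before their start codons, the core of the sites known for Aft1. It was searched on both strands in a window from 600 to 101 bases before the start codon, here 500 bases long. It was found before 23 of 31 genes of the list (74.2%) and before 14 of the 18 called ones (77.8%), against 2.4% of 5787 genes with such a window. Membership of the list rests in part on known targets of this factor, and a match is a description of the letters. Stretches around 1 match of each gene are from R64, the build sacCer3, in the direction of the gene, with the motif or its complement GGGTGCA in capitals.
LSO1 (chrX:448877-448923, minus strand): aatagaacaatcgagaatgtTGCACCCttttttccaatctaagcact
FET3 (chrXIII:388551-388597, plus strand): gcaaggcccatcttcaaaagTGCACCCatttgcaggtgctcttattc
SIT1 (chrV:27449-27495, plus strand): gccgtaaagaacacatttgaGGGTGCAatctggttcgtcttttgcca
CCC2 (chrIV:1005413-1005459, plus strand): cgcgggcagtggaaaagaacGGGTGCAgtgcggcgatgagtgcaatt

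*CCC2* (YDR270W, chrIV:1005675-1008689), the ATPase that loads copper into Fet3, had the interaction with the smallest p of the list. It had 649, 621, 579 and 799 normalized counts in H3L126M in YPEG, against 1658, 1793, 1864 and 1678 in WT. In YPD *CCC2* had 244, 236, 216 and 191 in H3L126M, against 151, 168, 203 and 156 in WT. The strains did not overlap in YPEG, and the effect was -1.40 in YPEG and 0.39 in YPD (interaction -1.79, SE 0.16, adjusted p = 9.36e-06). *FET3* (YMR058W, chrXIII:388822-390732), the copper-dependent ferroxidase of high-affinity iron uptake, had 14254, 14748, 9634 and 11748 in H3L126M in YPEG, against 27178, 27171, 22389.7 and 16938 in WT. In YPD *FET3* had 5089, 5859, 3482 and 3184 in H3L126M, against 2205, 2159, 3481 and 3780.1 in WT (interaction -1.49, SE 0.33, adjusted p = 0.00764). The higher YPD level (0.60, not called) came from replicates 1 and 2, and the interaction was -2.25 in these and -0.77 in replicates 3 and 4. *LSO1* (YJR005C-A, chrX:448477-448758), a small gene induced by iron deficiency, had 41 raw counts over the 4 libraries of H3L126M in YPEG, against 377 in WT in YPEG, and 22 in H3L126M in YPD, against 14 in WT. The fall in YPEG was -3.35 (SE 0.47), and the YPD counts were too few for a fold change.

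Other called members covered further steps of iron uptake. The permease gene *FTR1* had an interaction of -1.21, and the siderophore transporter genes *SIT1*, *ARN1*, *ARN2* and *ENB1* had -1.62, -1.40, -1.18 and -0.73. From replicates 3 and 4 alone these were smaller, -0.63, -0.86, -0.87 and -0.36, and only that of *ARN2* passed (adjusted p = 0.051, 0.0646, 0.0431 and 0.14). The call of *ENB1* was also lost without H3L126M in YPEG replicate 3, among others (highest adjusted p 0.0679). *FRE3*, a siderophore reductase gene, had 664, 602, 571 and 763 normalized counts in H3L126M in YPEG, against 2153, 1749.6, 1859 and 1076 in WT, while in YPD it had 203, 191, 223 and 180.0 in H3L126M, against 187, 193, 198 and 197 in WT. *TIS11*, which destabilizes mRNAs of iron proteins, had -1.24, and its call was lost without H3L126M in YPD replicate 2 (adjusted p = 0.0506). *HMX1*, the heme oxygenase, had -1.30, and its call was lost without H3L126M in YPD replicate 1 (adjusted p = 0.0511). *FRE1*, a reductase of both iron and copper, had -1.24, but -0.11 from replicates 3 and 4, and its call was lost without H3L126M in YPEG replicate 1, among others. *AFT1* itself had -0.54, with -0.36 from replicates 1 and 2, which did not pass (adjusted p = 0.0716). *FET4*, a low-affinity transporter, was lower by the same amount in both media (-0.59 in YPEG and -0.59 in YPD), and *FRE4* was the 1 member higher in YPEG (0.88), where its interaction did not pass (adjusted p = 0.0803).

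**Figure D3:**
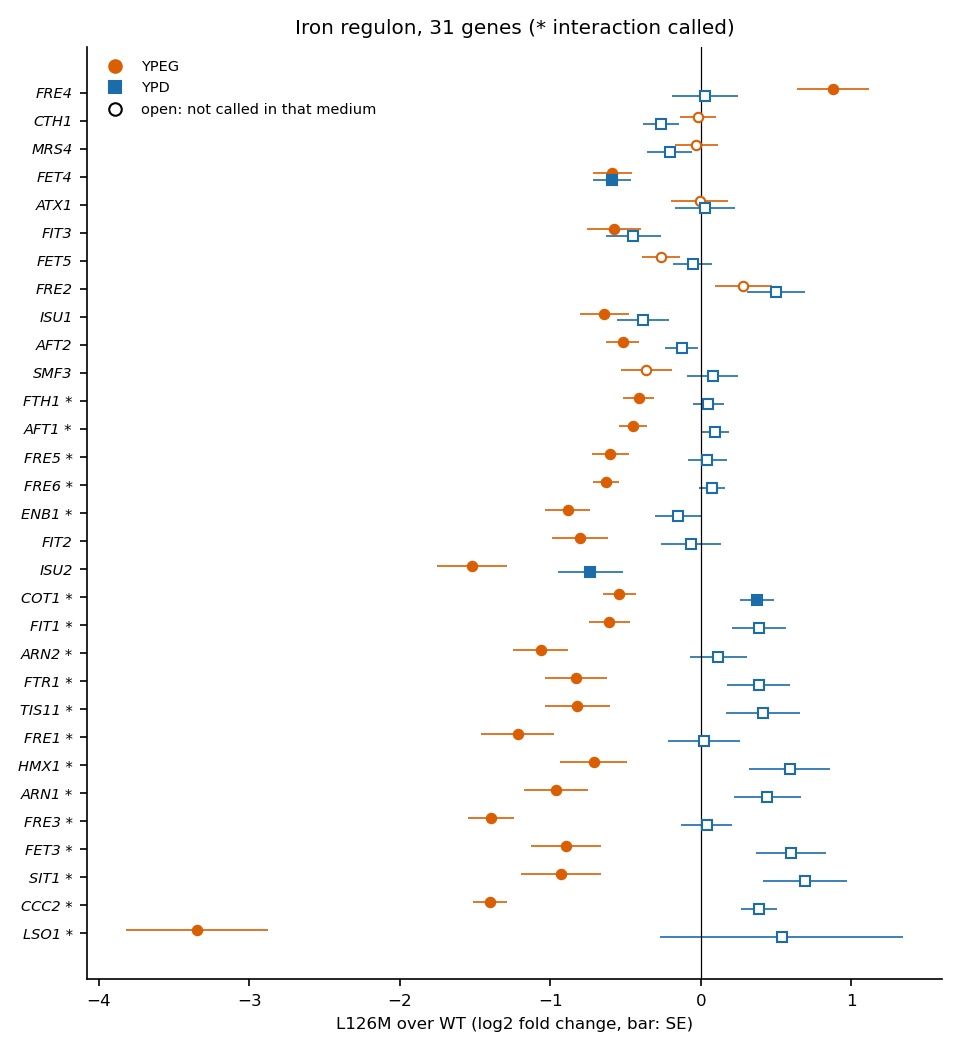
Effect of H3L126M over WT (x axis, log2 fold change with SE) for the 31 tested genes of the iron regulon, in YPEG (circles) and in YPD (squares), ordered by the interaction. Open symbols were not called in that medium and asterisks mark the 18 genes with a called interaction; nearly all filled circles lie left of 0, while the squares lie around 0.

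Copper genes moved less. Of 22 tested genes of copper uptake and handling 31.8% were called, beside 15.3% of all tested genes. Their interaction was lower for 6 and higher for 1 (6 and 2 from replicates 1 and 2, 4 and 1 from replicates 3 and 4). The list median was -0.11. Without H3L126M in YPEG replicate 1, H3L126M in YPD replicate 1 or 2, or WT in YPD replicate 2 the count was 4. *FRE1* and *CCC2* are in both metal lists. *FRE7* (YOL152W, chrXV:40748-42610), a putative reductase, reversed. It had 1554, 1499.7, 2412 and 2886 normalized counts in H3L126M in YPEG, against 3410.4, 2822, 3187 and 3508 in WT, and 576, 802, 511 and 420.0 in H3L126M in YPD, against 249, 185, 216 and 218 in WT. The strains were apart in YPD, overlapped in YPEG, and had effects of -0.63 in YPEG and 1.41 in YPD (interaction -2.04, SE 0.29, adjusted p = 5.06e-04). *CTR1*, the main copper importer, had -0.52 (adjusted p = 0.0353), which was lost without H3L126M in YPEG replicate 1, among others. *CTR3*, a second importer, was raised in YPD only, with 129, 109, 130.0 and 150.0 in H3L126M, against 73.8, 69.6, 78.1 and 83.9 in WT (interaction -0.97, -0.94 and -1.02 in the sets). *COX11*, which delivers copper to cytochrome c oxidase, was lower in YPEG only (-0.50, interaction -0.71). *SOD1* had 0.79, 0.23 from replicates 1 and 2 and 1.38 from replicates 3 and 4, and its call was lost when any 1 of 11 libraries was left out (highest adjusted p 0.0866). *CUP1-1* and *CUP1-2*, the metallothionein genes, had at most 1 count in a library and none of their sequence is unique, so that their expression cannot be read from these counts.

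Some genes of the cell cycle were among the gained falls in YPEG. *PCL1*, a G1 cyclin, *CLB6*, an S phase cyclin, and *YOX1*, a repressor of cell cycle genes, had the largest interactions among the gained falls that stood apart in every YPEG library and averaged at least 100 normalized counts in a group, followed by *CCC2* and *YGR079W*. *PCL1* (YNL289W, chrXIV:87897-88736) had 398, 547, 431 and 355 normalized counts in H3L126M in YPEG, against 1175, 1504, 1914 and 1687 in WT. In YPD *PCL1* had 285, 344, 204 and 235 in H3L126M, against 95.9, 103, 342 and 335 in WT (interaction -2.14, SE 0.46, adjusted p = 0.00738). The WT libraries in YPD fell into their pairs here, so the YPD effect had opposite signs in the sets, while the interaction was -3.17 and -1.59. *YOX1* had 254, 305, 287 and 353 in H3L126M in YPEG, against 699, 791, 1306 and 1366 in WT, and 173, 215, 167 and 192 in H3L126M in YPD, against 95.9, 117, 186 and 289 in WT (interaction -1.91, SE 0.39, adjusted p = 0.00573). *CLB6* had 45.5, 43.0, 55.0 and 70.1 in H3L126M in YPEG, against 142, 217, 208 and 219 in WT (interaction -2.11, -3.53 and -1.20 in the sets). *YGR079W* had -1.74, which was lost without H3L126M in YPEG replicate 1, among others (highest adjusted p 0.0578).

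Further cell cycle genes are named here because of their values. *CLB5*, another S phase cyclin, had an interaction of -1.02, the cohesin gene *MCD1* -1.33 and the endonuclease gene *HO* -1.40. These were -1.21, -1.69 and -2.21 from replicates 1 and 2, and -0.89, -1.0 and -0.85 from replicates 3 and 4. *RNR1*, the large subunit of ribonucleotide reductase, had -1.41, with -2.74 and -0.30 in the sets, and its call was lost without H3L126M in YPD replicate 1 or 2 (highest adjusted p 0.0528).

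The sites known for MBF and SBF hold ACGCGT and CGCGAAA, which can overlap each other. On both strands of the same window, ACGCGT was found before 40 of 394 genes with a gained fall (10.2%), against 5.88% of all, and CGCGAAA before 41 (10.4%), against 5.96%. These stretches show where the motif (capitals, in either direction) lies before a cyclin with SBF letters and genes with MBF letters.
PCL1 (chrXIV:87583-87629, plus strand): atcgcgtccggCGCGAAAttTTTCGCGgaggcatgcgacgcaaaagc
CLB6 (chrVII:706853-706898, minus strand): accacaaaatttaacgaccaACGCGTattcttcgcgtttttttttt
YOX1 (chrXIII:220889-220934, plus strand): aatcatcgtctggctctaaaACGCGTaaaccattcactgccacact
RNR1 (chrV:298624-298669, plus strand): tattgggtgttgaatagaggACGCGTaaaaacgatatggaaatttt

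Sporulation genes were among the lost rises. Those described first differed more between strains in YPD than in YPEG. Over the list, 16 of 34 members were higher and 0 lower in H3L126M in YPEG (median 0.43). In YPD 13 were higher and 1 lower (median 0.50). Among all tested genes 14.5% were higher in YPEG and 4.84% in YPD. *SMA1* (YPL027W, chrXVI:499665-500402), needed for the prospore membrane, had 149.5, 148, 160.1 and 153 normalized counts in H3L126M in YPEG, against 135, 107, 114 and 120.2 in WT. In YPD *SMA1* had 32.1, 28.0, 30.6 and 39.1 in H3L126M, against 11.6, 6.62, 2.08 and 4.05 in WT. The strains were apart in both media, by far more in YPD (0.36 in YPEG and 2.40 in YPD, interaction -2.04, SE 0.35, adjusted p = 0.00225). *SPR28*, a septin of sporulation, had 144, 184, 145 and 123 in H3L126M in YPEG, against 165, 122, 125 and 125 in WT. In YPD it had 69.9, 60.5, 43.0 and 60.9 in H3L126M, against 25.3, 7.73, 14.6 and 10.1 in WT (interaction -1.86, SE 0.36, adjusted p = 0.00391). The strains overlapped in YPEG and were apart in YPD. The interaction was -1.43 and -3.05 in the sets for *SMA1*, and -1.78 and -1.99 for *SPR28*. *PES4*, an RNA-binding protein gene, had means of 185 ± 49.5 in H3L126M and 138 ± 11.6 in WT in YPEG (SD, n = 4 each), and 60.4, 101, 73.6 and 109 in H3L126M in YPD, against 19.0, 15.5, 16.7 and 14.2 in WT (interaction -1.97). *PDC6*, a minor pyruvate decarboxylase, had 243, 227, 214 and 234 in H3L126M in YPEG, against 240.2, 214, 155 and 184 in WT, and 91.6, 76.1, 78.4 and 65.5 in H3L126M in YPD, against 19.0, 21.0, 4.17 and 22.2 in WT (interaction -2.01). *ANS1*, a cell wall protein gene, had 436 raw counts in H3L126M in YPEG, against 277 in WT in YPEG, and 67 in H3L126M in YPD, against 4 in WT in YPD. These 4 counts came from 1 library and are too few for a fold change.

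Of 34 tested genes of meiosis and sporulation, 7 had a lower and 4 a higher interaction, and 5 were lower in both sets of replicates. This was 32.35% called, beside 15.3% of all tested genes. Without WT in YPD replicate 2 the count of 11 fell to 7. The lower ones were *REC8*, the meiotic cohesin, *MAM1*, of the monopolin complex, *DIT1*, of the spore wall, *SPR28*, *SPS4*, *CDA1*, a chitin deacetylase, and *GIP1*, a phosphatase subunit. The interaction of *MAM1* did not pass from replicates 1 and 2 (-1.44, adjusted p = 0.0556). *DIT1* had effects of 0.28 in YPEG and 1.65 in YPD and *REC8* -0.45 in YPEG and 1.19 in YPD, whereas *SPS4*, *CDA1* and *GIP1* were raised in both media and less in YPEG (1.58 in YPEG and 2.78 in YPD for *CDA1*). The call of *GIP1* was lost without H3L126M in YPD replicate 2 or WT in YPD replicate 2 (highest adjusted p 0.0554). The higher ones include regulators of entry into meiosis. *IME1* was lower in YPD only (-0.27 in YPEG and -1.01 in YPD), a call lost without H3L126M in YPEG replicate 1, among others, and the kinase gene *IME2* was higher in YPEG only (1.44 in YPEG and 0.44 in YPD). The whole list summed to 7660 to 8755 normalized counts in H3L126M in YPEG, against 6385 to 6701 in WT in YPEG, and to 5418 to 5463 in H3L126M in YPD, against 4010 to 4245 in WT in YPD. As both strains are MATa, alpha-cell genes were checked for alpha cells in the cultures. This was not a test for diploid cells. *MATALPHA1* and *HMLALPHA1* had 0 counts, though none of their sequence is unique. The summed level of 4 alpha-cell genes was 787 to 900.3 in H3L126M in YPEG, against 521 to 574 in WT, and 626 to 745 in H3L126M in YPD, against 328 to 432 in WT. The summed level of 8 a-cell genes was 7557 to 8712 in H3L126M in YPEG, against 4227 to 4606 in WT. In YPD it was 25725 to 31392 in H3L126M, against 15216 to 25587 in WT. Both sums were thus higher in H3L126M in both media, like that of the sporulation genes, and their part in that result was not tested.

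The motif GNCNCAAA, in which N is any base, is a looser form of the site known for the middle sporulation factor Ndt80. It was found on either strand before 18 of 34 list genes (52.9%) and before 17 of 56 genes with a lost rise (30.4%), against 21.5% of all. The list was drawn up in part from known targets. Stretches with the motif (capitals, in either direction) are shown for 3 sporulation genes and for *BNA2*, which is described next. Read as GNCNCAAA, the last N is A or G in the 3 sporulation genes but T in *BNA2*. A match is a description of the letters, and binding by Ndt80 was not tested.
DIT1 (chrIV:1274009-1274056, plus strand): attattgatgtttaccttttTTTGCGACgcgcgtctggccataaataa
MAM1 (chrV:372151-372198, plus strand): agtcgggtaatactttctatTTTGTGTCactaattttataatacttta
GIP1 (chrII:330331-330378, minus strand): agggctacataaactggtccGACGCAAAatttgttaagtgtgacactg
BNA2 (chrX:578467-578514, plus strand): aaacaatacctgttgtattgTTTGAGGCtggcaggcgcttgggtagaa

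Of the genes raised in both media and less so in YPEG, *BNA2* had the largest interaction. *BNA2* (YJR078W, chrX:578860-580221), the first enzyme of NAD synthesis from tryptophan, had 1570.2, 1679, 1237 and 1309.9 normalized counts in H3L126M in YPEG, against 1082, 989, 1154 and 1034 in WT. In YPD it had 308, 344, 271 and 359 in H3L126M, against 39.0, 47.5, 32.3 and 37.4 in WT. The strains were apart in both media, with a rise of 0.44 in YPEG and 3.03 in YPD (interaction -2.59, SE 0.18, adjusted p = 5.33e-07). Its interaction was -2.28 and -2.96 in the sets, and between -2.69 and -2.51 with any 1 library left out. *BNA4* and *BNA1*, later enzymes of the pathway, were also raised in both media and less in YPEG (-0.61 and -0.51), with calls lost when H3L126M in YPD replicate 3, among others, was left out (highest adjusted p 0.0655 and 0.0688). Of 19 genes of NAD synthesis these 3 were lower and 0 higher (15.8%, beside 15.3% of all tested genes called). Each set of replicates gave 2 lower and 3 higher. *STE3*, the alpha-cell receptor for a-factor, behaved like them (0.46 in YPEG and 1.84 in YPD, interaction -1.38, -1.40 and -1.39 in the sets). The a-cell genes gave the opposite order, with 5 of 8 higher and 0 lower (62.5%, beside 15.3% of all tested genes called). They had 1 higher and 1 lower from replicates 1 and 2, but 6 higher from replicates 3 and 4. The count of 5 fell to between 1 and 3 when any 1 of 12 libraries was left out. *BAR1*, the protease that degrades alpha factor, had 0.94, with 0.05 and 1.70 in the sets, and its call was lost without H3L126M in YPEG replicate 1, among others.

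Acid phosphatases and other phosphate genes lost all or part of their fall in YPEG. In YPEG the strains were closer to each other, whereas in YPD these genes were lower in H3L126M than in WT. *PHO5* (YBR093C, chrII:429548-430951), the main repressible acid phosphatase, had 728, 758, 478 and 461 normalized counts in H3L126M in YPEG, against 807, 1253, 834 and 485 in WT. In YPD *PHO5* had 695, 675, 628 and 614 in H3L126M, against 2614, 2689.7, 3416 and 3644 in WT. The YPD libraries of H3L126M lay within the range of the YPEG libraries of both strains, and WT in YPD stood apart (-0.48 in YPEG and -2.24 in YPD, interaction 1.77, SE 0.31, adjusted p = 0.0025). *PHO11* and *PHO12*, acid phosphatase genes near telomeres, differ so little that 11.7% and 12.8% of their sequence is unique, and their counts cannot be told apart with certainty. *PHO12* had 169, 149.6, 109 and 118 in H3L126M in YPEG, against 169, 205, 149 and 117 in WT, and 906, 939, 776 and 877 in H3L126M in YPD, against 3139, 3620.5, 3846 and 4231 in WT (interaction 1.86, SE 0.22, adjusted p = 8.88e-05). *PHO11* kept a smaller fall in YPEG, with 35.8, 61.1, 48.1 and 39.2 in H3L126M, against 99.3, 184, 132 and 73.4 in WT, and had 79.3, 96.3, 105 and 84.5 in H3L126M in YPD, against 1019.5, 1059, 1300.1 and 1387 in WT (interaction 2.31, SE 0.33, adjusted p = 4.69e-04). These genes were apart in YPD in every library. The interactions of *PHO5* and *PHO12* were 1.46 and 1.62 from replicates 1 and 2, and 2.00 and 2.05 from replicates 3 and 4. *PHO89*, a sodium-phosphate cotransporter, had 10156, 10176, 6673 and 5536 in H3L126M in YPEG, against 9882, 9432, 5168 and 3542 in WT, and 243, 195, 426 and 331 in H3L126M in YPD, against 1515, 1348, 974 and 798 in WT (interaction 2.17, SE 0.45, adjusted p = 0.00636).

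Of 23 tested genes of the phosphate regulon 8 had a higher and 0 a lower interaction (34.8%, beside 15.3% of all tested genes called). Over the list, 10 were lower and 1 higher in H3L126M in YPEG (median -0.32). In YPD 14 were lower and 1 higher (median -0.54). Among all tested genes 17.3% were lower in YPEG and 3.3% in YPD. Much of the fall was thus present in both media. *PHO8*, the vacuolar alkaline phosphatase, had effects of -0.03 in YPEG and -1.18 in YPD, and *VTC1* and *VTC2*, which make polyphosphate, had interactions of 0.65 and 0.36. The call of *VTC2* was lost when any 1 of 12 libraries was left out, and with the replicate number as a block, and its interaction was 0.16 from replicates 1 and 2 (adjusted p = 0.385). *SPL2* kept part of its fall (-1.12 in YPEG and -1.86 in YPD), a call that was lost without H3L126M in YPEG replicate 1, among others. The main high-affinity transporter gene *PHO84* did not go with them, with effects of -1.07 in YPEG and -0.46 in YPD and an interaction that did not pass (-0.61). In replicates 1 and 2 the list had 9 higher and 6 lower members, in replicates 3 and 4 it had 11 and 0, and 6 were higher in both. CACGTG, the core of the sites known for Pho4, was found in the window of 16 of 23 list genes (69.6%) and of all 8 called ones, against 6.76% of all, and the list rests in part on known targets. These stretches are shown because the called phosphatases share more than the motif (capitals). The stretches of *PHO11* and *PHO12* are identical.
PHO5 (chrII:431179-431224, minus strand): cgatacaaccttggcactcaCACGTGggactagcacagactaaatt
PHO11 (chrI:225157-225202, plus strand): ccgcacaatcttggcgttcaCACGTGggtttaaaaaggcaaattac
PHO12 (chrVIII:551796-551841, plus strand): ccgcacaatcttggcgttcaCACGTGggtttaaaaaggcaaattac
PHO89 (chrII:798820-798865, minus strand): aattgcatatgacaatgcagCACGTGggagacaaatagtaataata

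Genes of amino acid and purine synthesis lost a fall in the same way. *HIS4* (YCL030C, chrIII:65934-68333), of histidine synthesis, had 723, 503, 739.5 and 744 normalized counts in H3L126M in YPEG, against 522, 518, 434 and 474 in WT. In YPD *HIS4* had 2481, 2148, 4368 and 3623 in H3L126M, against 9874, 10953, 7325 and 6743 in WT (interaction 1.94, SE 0.29, adjusted p = 7.52e-04). *MET6*, the methionine synthase, had 4442, 4157, 3572 and 3728 in H3L126M in YPEG, against 5624, 6383, 4516 and 3920.3 in WT, and 2776, 2733, 2713 and 2053 in H3L126M in YPD, against 10568, 10927, 9677 and 10493 in WT (interaction 1.66, SE 0.19, adjusted p = 8.88e-05). Both genes were apart between strains in YPD in every library and overlapped in YPEG. The interaction was 2.38 and 1.51 in the sets for *HIS4*, and 1.46 and 1.86 for *MET6*. *STR3*, a cystathionine beta-lyase, had 62.3, 40.3, 55.4 and 66.4 in H3L126M in YPD, against 479.7, 488, 167 and 123 in WT, so that the size of its interaction of 2.98 rested on WT replicates 1 and 2 (3.86 from replicates 1 and 2, 1.51 from replicates 3 and 4).

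Of 48 amino acid synthesis genes under Gcn4, 19 had a higher and 0 a lower interaction, and 14 were higher in both sets of replicates. In YPEG 9 of them were higher and 8 lower in H3L126M, while in YPD 0 were higher and 32 lower. Of 22 sulfur amino acid genes 8 were higher and 0 lower, 6 of them in both sets, among them *SAM2* (0.99), of S-adenosylmethionine synthesis, and *SAM3*, of its uptake (1.0). Of 22 genes of IMP dehydrogenase and purine synthesis 8 were higher and 1 lower, 7 of them higher in both sets. The interaction was called for 39.6% of the Gcn4 list, 36.4% of the sulfur list and 40.9% of the purine list. Among all tested genes it was called for 15.3%. *ADE17*, which makes IMP, had effects of -0.03 in YPEG and -1.36 in YPD (interaction 1.33, SE 0.15, adjusted p = 6.98e-05). *HIS1* was lower in both media and less so in YPEG (-0.40 in YPEG and -1.05 in YPD), with an interaction that did not pass from replicates 1 and 2 (0.32, adjusted p = 0.0701). The letters TGACTC, the core of the sites known for Gcn4, were found in the window of 34 of the 48 list genes (70.8%) and of 16 of the 19 called ones, against 13.7% of all. The list rests in part on known targets. Over all 68 genes with a lost fall, of which 12 are on the list, the letters were found before 32 (47.1%). Stretches with the motif (capitals) are shown for a gene that lost its fall, 2 that reversed and 1 that gained a rise.
HIS4 (chrIII:68507-68552, minus strand): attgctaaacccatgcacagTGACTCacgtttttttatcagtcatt
LEU1 (chrVII:478928-478973, minus strand): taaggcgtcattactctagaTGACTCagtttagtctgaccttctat
ARG4 (chrVIII:141556-141601, minus strand): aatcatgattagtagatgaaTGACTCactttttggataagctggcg
ARG3 (chrX:268465-268510, plus strand): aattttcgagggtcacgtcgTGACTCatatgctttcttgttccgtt

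*LEU1* and *ARG4* are among the 35 genes whose effect reversed. *LEU1* (YGL009C, chrVII:476313-478652), the isopropylmalate isomerase of leucine synthesis, had 2524, 2378, 2823 and 3613 normalized counts in H3L126M in YPEG, against 2118, 1925, 2195 and 2543 in WT. In YPD *LEU1* had 13093, 13566, 12910.3 and 12892 in H3L126M, against 24287, 25196, 22565 and 23430.1 in WT. The strains overlapped in YPEG, where the rise was 0.37 (adjusted p = 0.0275), and were apart in YPD, where the fall was -0.86 (interaction 1.23, SE 0.17, adjusted p = 3.78e-04, 1.15 and 1.26 in the sets). *ARG4*, the argininosuccinate lyase, had effects of 0.65 in YPEG and -0.80 in YPD and an interaction of 1.46 (SE 0.31). In the sets its interaction was 1.81 and 1.13, its YPEG effect 0.25 and 1.0, and its YPD effect -1.56 and -0.13. The fall in YPD thus came mostly from replicates 1 and 2 and the rise in YPEG mostly from replicates 3 and 4. *MET13*, a methylenetetrahydrofolate reductase of methionine synthesis, was the 1 gene reversed to higher in YPEG by at least 2-fold in which no library overlapped in either medium. It had 625, 545, 462 and 479 in H3L126M in YPEG, against 355, 350.2, 285 and 344 in WT, and 474, 474, 583 and 567 in H3L126M in YPD, against 874, 990.4, 844 and 592 in WT (interaction 1.31, SE 0.20, adjusted p = 0.001).

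*INO2* (YDR123C, chrIV:698554-699468), an activator of phospholipid genes, had the largest interaction among the genes reversed to higher. It had 1022, 1201, 646 and 562 normalized counts in H3L126M in YPEG, against 627, 629, 497 and 417 in WT. In YPD *INO2* had 319, 226, 248 and 245 in H3L126M, against 723, 617, 597 and 459 in WT (0.66 in YPEG and -1.20 in YPD, interaction 1.87, SE 0.31, adjusted p = 0.00165). The strains were apart in YPD and overlapped in YPEG, where each replicate set was apart by itself. *ITR1*, the inositol transporter, and *CKI1*, the choline kinase, also reversed, with interactions of 0.83 and 0.92. That of *CKI1* was 1.36 from replicates 1 and 2 and 0.41 from replicates 3 and 4, where it did not pass (adjusted p = 0.084). *INO1* (YJL153C, chrX:134332-135933), which makes inositol phosphate, was raised in both media and more in YPEG. It had 4429, 3514, 4621 and 4692 in H3L126M in YPEG, against 815, 822, 672 and 819 in WT, and 157, 178, 157 and 138 in H3L126M in YPD, against 40.1, 75.1, 68.8 and 73.8 in WT (2.46 in YPEG and 1.28 in YPD, interaction 1.18, SE 0.21, adjusted p = 0.00258). From replicates 1 and 2 alone the interaction of *INO1* was 0.72 (adjusted p = 0.0738) and did not pass. Of 24 genes of inositol and phospholipid synthesis 33.3% were called, beside 15.3% of all tested genes. Their interaction was higher for 8 and lower for 0. From replicates 1 and 2 it was 8 and 2, from replicates 3 and 4 13 and 0, with 5 higher in both. CATGTG, the core of the sites known for Ino2 with Ino4, was found in the window of 16 of the 24 (66.7%), a list drawn up in part from known targets, against 14.9% of all. In the stretch of *INO2* the motif and its complement overlap and both are in capitals.
INO1 (chrX:136086-136131, minus strand): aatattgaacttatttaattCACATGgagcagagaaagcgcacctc
INO2 (chrIV:699587-699632, minus strand): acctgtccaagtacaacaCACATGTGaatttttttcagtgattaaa

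The other genes reversed to higher in YPEG were *ADE1* and *ADE13* of purine synthesis, *ARO3* of aromatic amino acid synthesis, *GDH1*, a glutamate dehydrogenase, *GSH1* of glutathione synthesis, *HMG2* of sterol synthesis, *FOL2* of folate synthesis, the mitochondrial carrier gene *DIC1*, the drug transporter gene *QDR2*, and *ATP11*, *CAM1*, *ERV14*, *HMO1*, *THO1* and *YER156C*. Their interactions lay between 0.52 (*CAM1*) and 1.02 (*DIC1*). *GDH1*, for example, had 9788, 8717, 9749.6 and 9767 in H3L126M in YPEG, against 8495, 9142, 6879 and 5617 in WT, and 5924, 6137, 6145 and 5280.2 in H3L126M in YPD, against 9331, 9853, 8603 and 8713 in WT. Here the strains were apart in YPD and overlapped in YPEG. Over the 35 reversed genes, 26 had no overlap between strains in YPEG and 29 in YPD, and 20 had none in either. Among all tested genes 28.5% had no overlap in YPEG and 18.5% in YPD. Reversed genes had to be called in both media, so less overlap among the 35 follows from how they were chosen. Only 4 were classed as reversed in both sets of replicates (15 from replicates 1 and 2, 14 from replicates 3 and 4), and leaving out 1 library changed the count to between 13 (H3L126M in YPD replicate 1) and 59 (WT in YPD replicate 4).

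Reversed to lower in YPEG were 14 genes. *VMR1* (YHL035C, chrVIII:27978-32756), a vacuolar transporter of the ABC family, had 2316, 2199, 2217 and 2693 normalized counts in H3L126M in YPEG, against 4277, 3876, 3624 and 3629 in WT. In YPD *VMR1* had 1086, 1022, 834 and 828 in H3L126M, against 676, 592, 641 and 659 in WT. No library overlapped in either medium (-0.71 in YPEG and 0.55 in YPD, interaction -1.26, SE 0.14, adjusted p = 6.98e-05). *MSA2*, a regulator of G1 genes, had 430.2, 641, 538 and 637 in H3L126M in YPEG, against 743, 709, 996 and 1136 in WT, and 242, 334, 186 and 212 in H3L126M in YPD, against 127, 137, 160.4 and 172 in WT (interaction -1.38). *YGK3*, a kinase gene of the GSK-3 family, had 102, 127, 107 and 83.4 in H3L126M in YPEG, against 169, 179, 172 and 168 in WT, and 267, 282, 248 and 232 in H3L126M in YPD, against 174, 127, 184 and 222 in WT (interaction -1.25). These 3 genes kept interactions of at most -0.93 in each set. *COT1*, a vacuolar zinc transporter counted with the iron genes, had -0.54 in YPEG and 0.38 in YPD. YOR381W-A had 91 raw counts in H3L126M in YPEG, against 148 in WT in YPEG, and 145 in H3L126M in YPD, against 23 in WT in YPD. The remaining 9 were *FRE7*, described with the copper genes, the mitochondrial protein genes *MSR1*, *OCT1* and *PET127*, and *JEM1*, *DSE3*, *RAD17*, *RIB2* and *YHR182W*, with interactions between -0.96 (*MSR1*) and -0.54 (*RIB2*) apart from *FRE7*.

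**Figure D4:**
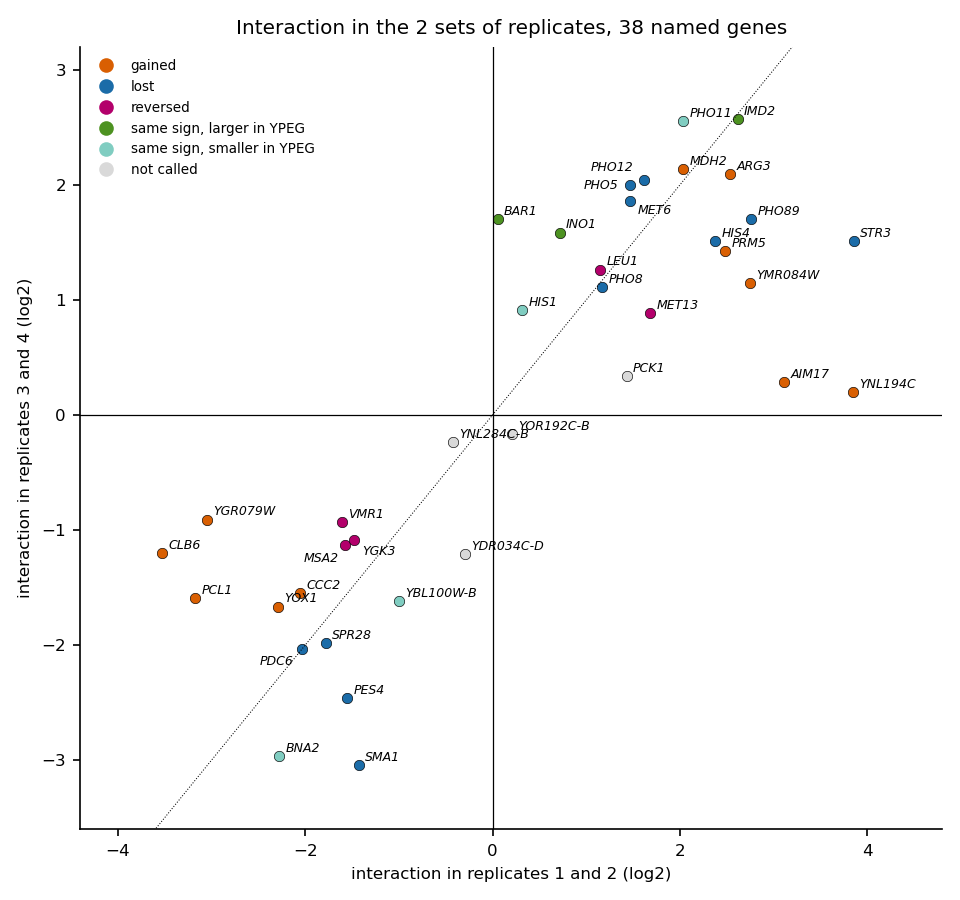
Interaction from replicates 3 and 4 alone (y axis, log2) against that from replicates 1 and 2 alone (x axis, log2) for 38 genes named in the text by a rule, coloured by class. The dotted line marks equal values; IMD2, MDH2, LEU1 and PHO8 lie near it, while YNL194C and AIM17 lie near 0 on the y axis and BAR1 near 0 on the x axis.

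Among genes raised in both media and more in YPEG, *IMD2* stood out. *IMD2* (YHR216W, chrVIII:554396-555967), an IMP dehydrogenase of guanine nucleotide synthesis, had 2073, 1605, 1651 and 1616 normalized counts in H3L126M in YPEG, against 157, 198, 112 and 179 in WT. In YPD *IMD2* had 5261, 4897, 4995 and 4195 in H3L126M, against 2929.9, 3166, 2552 and 2319.9 in WT. WT in YPEG was the low group, and the strains were apart in both media (3.43 in YPEG and 0.82 in YPD, interaction 2.61, SE 0.21, adjusted p = 1.66e-06). The interaction was 2.62 and 2.57 in the sets. *IMD2* shares much of its sequence with its paralogs (66.3% unique). Several Ty genes were in the same class. Of 31 tested Ty genes 8 had a higher and 3 a lower interaction (35.5%, beside 15.3% of all tested genes called). Each stands for a group of copies. In H3L126M 23 were raised and 0 lowered in YPEG (median 1.12), and 22 were raised and 0 lowered in YPD (median 0.71). YBL100W-B, of which 15.7% is unique, had the opposite order, with 863, 1163, 708 and 685 in H3L126M in YPEG, against 244, 256, 278 and 308 in WT, and 2659.9, 2397, 2295 and 2579 in H3L126M in YPD, against 279, 353, 319.8 and 353 in WT (interaction -1.27, SE 0.20, adjusted p = 0.00115). The interactions of the Ty genes YOR192C-B, YNL284C-B and YDR034C-D did not pass (0.05, -0.31 and -0.77).

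For respiratory and ribosomal genes the counts rested on which libraries were used. Of 27 genes of respiratory complexes II to IV 10 were higher in H3L126M in YPEG, beside 14.5% of all tested genes. Only the interaction of *SDH2*, a subunit of succinate dehydrogenase, passed (0.79, 1.13 from replicates 1 and 2 and 0.31 from replicates 3 and 4). Its call was lost when any 1 of 7 libraries was left out. Replicates 1 and 2 gave 13 higher and 0 lower of these genes, and replicates 3 and 4 gave 4 higher and 3 lower. Of 17 ATP synthase genes 0 passed by edgeR from 16 libraries, against 2 higher from replicates 1 and 2, and 3 higher and 4 lower from replicates 3 and 4. Of 136 ribosomal protein genes 3 were higher and 1 lower, but replicates 1 and 2 gave 1 higher and 22 lower, and replicates 3 and 4 gave 119 higher and 1 lower. The count was between 2 and 21 with 1 library left out, lowest without H3L126M in YPEG replicate 1 and highest without WT in YPEG replicate 1. The share of ribosomal protein counts was 9.28% to 11.3% in H3L126M in YPEG, against 8.08% to 11.6% in WT in YPEG, and 14.7% to 17.1% in H3L126M in YPD, against 15.9% to 18.1% in WT in YPD. Glycogen and trehalose genes also changed sides, with 14 of 17 higher from replicates 1 and 2, 7 lower from replicates 3 and 4, and 0 called from 16 libraries. Of the 11 tested histone genes *HHF2* (0.50) and *HTZ1* (0.43) were higher and 0 lower (18.2%, beside 15.3% of all tested genes called). Both had a fall in YPD only. The edited genes *HHT1* and *HHT2* had interactions of 0.53 and 0.40 that did not pass from 16 libraries (adjusted p = 0.161 and 0.0866). In the sets *HHT1* had 0.06 (adjusted p = 0.875) and 1.09 (adjusted p = 0.00122). *HHT2* had 0.51 (adjusted p = 0.0368) and 0.24 (adjusted p = 0.279). The histone list had 3 higher and 0 lower from replicates 1 and 2, and 7 higher and 0 lower from replicates 3 and 4. The call of *HHF2* was lost without H3L126M in YPEG replicate 1 (adjusted p = 0.0508), and that of *HTZ1* without H3L126M in YPEG replicate 3, among others (highest adjusted p 0.0558).

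**Figure D5:**
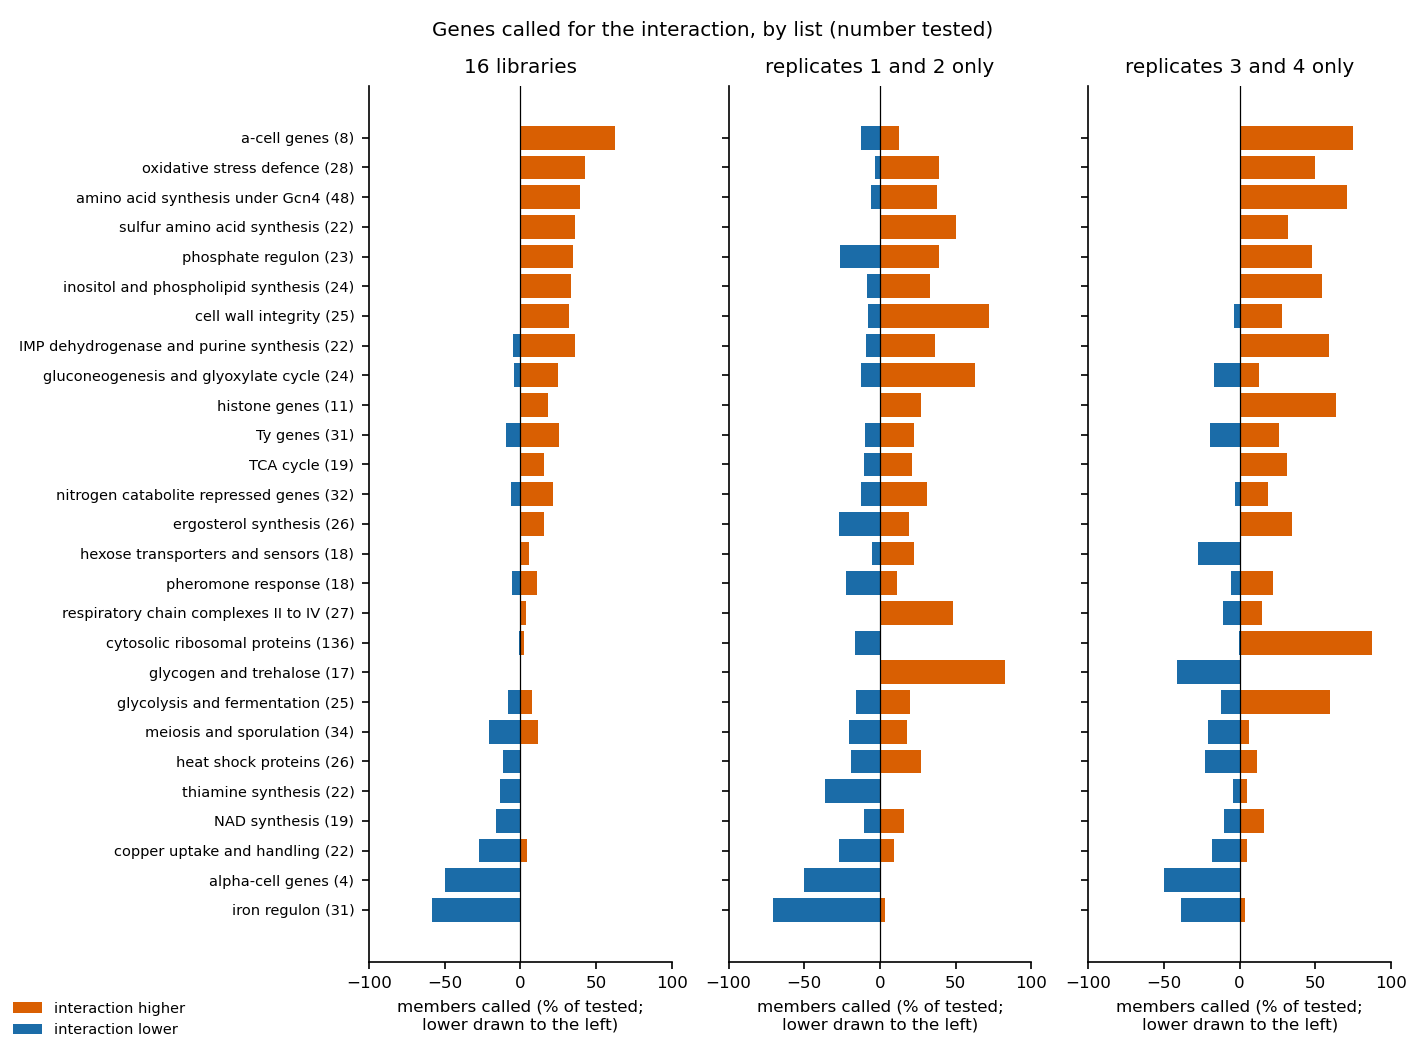
Share of the tested members of each list (x axes, %) with a higher (orange, to the right) or lower (blue, to the left) called interaction, from 16 libraries, from replicates 1 and 2, and from replicates 3 and 4. Numbers in parentheses are members tested; the iron regulon lies mostly to the left and sulfur and Gcn4 genes mostly to the right in all 3 panels, while ribosomal protein and glycogen genes change sides.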

How the data were processed

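Poly-A RNA of 16 libraries (H3L126M and WT in YPEG and YPD, 4 each) was analysed. Per the submitters' processing notes and the methods, the authors aligned stranded reads to sacCer3 with HISAT2, counted them per ORF with featureCounts and deposited the raw counts as whole numbers, which were the input of every test. Reads shared by near-identical genes cannot be assigned from these counts. The authors also deposited counts divided by DESeq2 size factors, a signal that was not used here. 6008 of 6692 ORFs matched the RefSeq annotation of R64.

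One mean per group was fitted with the quasi-likelihood test of edgeR 4.0.16 (R 4.3.3, TMM scaling, a minimum count of 10 in the edgeR filter, no block), with Benjamini-Hochberg adjustment over the 6030 tested genes and a threshold of 0.05. SE is the log2 fold change over the square root of F. Alternatives were DESeq2 1.42.0, its size factors in edgeR, other filters, all 24 libraries, a threshold of 0.01, the replicate number as a block, leaving out each library, and, chosen after seeing the data, only WT replicates 1 and 2 or 3 and 4, and only replicates 1 and 2 or 3 and 4 of all groups. Depth was 8570789 to 13133489 counts, so genes with few counts are imprecise.

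Genes were named by a rule: in each of the classes gained, lost and reversed, in each direction, the 5 largest interactions among called genes of at least 2-fold with a group mean of at least 100 and no overlap between strains in the medium of the effect, genes labelled in the volcano plots of the study, histone genes, and members of lists. The other reversed genes, YOR381W-A and the cell cycle genes were named after their values were seen. The members and the 33 lists were chosen with earlier results of these data known. List members are described by counts, without a test of the list. Sequence was called unique where a 50-base window occurred once in R64, as a percentage of the windows of a gene. Python 3.11.15, pandas 2.3.3, numpy 2.4.6 and matplotlib 3.10.9 were used.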

Additional observations from a re-analysis of the deposited data

Results flagged for a closer look

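The effect of H3L126M differed between YPEG and YPD for 920 genes by the test of the difference itself, and for 35 of these it was called in both media with opposite signs. Both counts are described above.

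In 11 of 164 groups of 4 libraries, 1 library stood away from the other 3 by more than Dixon's limit, and chance flags about 1 in 20 groups. In H3L126M in YPEG, ribosomal protein genes took 9.28% of the counts of replicate 2, against 10.97% to 11.3% in the others, and *HIS4* had 503 normalized counts in the same library, against 723 to 744. *IMD2* had 2073 in H3L126M in YPEG replicate 1, against 1605 to 1651 in the others. In WT in YPEG, *CLB6* had 142 in replicate 1 (208 to 219 in the others) and *SPR28* had 165 in replicate 1 (122 to 125 in the others). In WT in YPEG replicate 3, *MET13* had 285 (344 to 355 in the others) and *INO1* had 672 (815 to 822 in the others). In H3L126M in YPD, *YMR084W* had 34.7 in replicate 2 (66.4 to 70.8 in the others) and *MET6* had 2053 in replicate 4 (2713 to 2776 in the others). In WT in YPD replicate 4, *ANS1* had 4.05, with 0 in the others, and *PCK1* had 35.4, against 71.7 to 78.4 in the others.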

How the results depend on the processing

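The number of genes called for the interaction was 920, and 1504 with all 24 libraries in the fit, 262 at an adjusted p below 0.01, 231 at 2-fold or more, 1733 with only WT replicates 1 and 2, 1999 with replicates 1 and 2 of all groups, 1561 with replicates 3 and 4 of all groups, and 519 to 1365 with 1 library left out. With only WT replicates 3 and 4 it was 1374, of which 55.7% were higher, against 43.8% of the 920. In YPEG the 1921 calls became 953 at an adjusted p below 0.01 and 1254 to 2139 with 1 library left out. In YPD the 491 calls became 279 at 0.01, 1333 and 820 with only WT replicates 1 and 2 or 3 and 4, 1619 and 1073 with these replicates of all groups, and 358 to 525 with 1 library left out. Gained genes numbered 1013 with 24 libraries, 159 at 0.01 and 968 with only WT replicates 3 and 4. They numbered 720 and 1006 with replicates 1 and 2 or 3 and 4 of all groups. With 1 library left out they numbered 320 to 916. Lost genes numbered 66 at 0.01, 502 with only WT replicates 1 and 2, 547 and 243 with replicates 1 and 2 or 3 and 4 of all groups, and 82 to 172 with 1 left out. Reversed genes numbered 57 with DESeq2, 75 with 24 libraries, 4 at 0.01, 314 and 86 with only WT replicates 1 and 2 or 3 and 4, 491 and 138 with these replicates of all groups, and 13 to 59 with 1 left out. The cause of these shifts was not tested. DESeq2 called 1252 genes, 919 of the 920 among them, DESeq2 size factors 903, no filter 874, and a mean of at least 100 counts 934. No scaling moved the median of all genes by over 0.1. The interaction of YOR192C-B, which never passed, was -0.082 to 0.117 with 1 library left out, below 0 without H3L126M in YPEG replicate 2 (-0.082) or WT in YPEG replicate 2 (-0.015), and -0.17 with replicates 3 and 4 of all groups. With the replicate number as a block 829 genes were called, 774 of them among the 920. Same-numbered libraries of different groups had deviations correlated between -0.52 and 0.374 (median -0.0932). Other pairs from different groups had -0.557 to 0.598 (median 0.0116). These deviations are centred on 4 libraries, so they cannot show whether same-numbered libraries were grown or prepared together. The sources do not say, and the block is only a shared number. Genes with few counts, such as *LSO1*, *ANS1* and YOR381W-A, are limited by depth.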

Other observations

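A pair of genes of glycerol synthesis had interactions of opposite sign. *GPD1*, the glycerol-3-phosphate dehydrogenase, gained a rise in YPEG (0.98 in YPEG and -0.50 in YPD, interaction 1.47, SE 0.37, adjusted p = 0.0149), with 1099, 795, 1076 and 1181 normalized counts in H3L126M in YPEG, against 822, 482, 289.9 and 519 in WT. *GPP2*, a glycerol-3-phosphatase, gained a fall (-1.23 in YPEG and -0.02 in YPD, interaction -1.21, SE 0.22, adjusted p = 0.00279), with 785, 746, 885 and 902 in H3L126M in YPEG, against 2251, 2089, 1918 and 1502 in WT. Both held in each set of replicates (1.30 and 1.56 for *GPD1*, -1.22 and -1.29 for *GPP2*). Their paralogs had interactions that did not pass, 0.28 for *GPD2* (adjusted p = 0.319) and -0.11 for *GPP1* (adjusted p = 0.735), and *GPP1* was lower in H3L126M in both media (-0.75 in YPEG and -0.64 in YPD). The small heat shock protein gene *HSP26* gained a fall (-1.36 in YPEG and 0.35 in YPD, adjusted p = 0.0221). The list of 26 heat shock genes had 3 lower and 0 higher members from 16 libraries (11.5%, beside 15.3% of all tested genes called). It had 7 higher and 5 lower from replicates 1 and 2, and 3 higher and 6 lower from replicates 3 and 4. With 1 library left out it had 1 to 7 called members.

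Of 22 thiamine genes 3 had a lower and 0 a higher interaction (13.6%, beside 15.3% of all tested genes called). Replicates 1 and 2 gave 8 lower, and replicates 3 and 4 gave 1 higher and 1 lower. Leaving out 1 library gave 1 (H3L126M in YPEG replicate 1, H3L126M in YPD replicate 1 or WT in YPD replicate 2) to 5 (WT in YPD replicate 4). *THI5*, of which 15% is unique among its copies, had 341 raw counts in H3L126M in YPEG, against 203 in WT in YPEG, and 159 in H3L126M in YPD, against 11 in WT in YPD. Of 26 ergosterol genes 4 had a higher and 0 a lower interaction (15.4%, beside 15.3% of all tested genes called). These were the same 4 that were higher in both sets of replicates, *ERG9* (0.58), *ERG28* (0.92), *HMG2* (0.69) and *ECM22* (0.81). The list nevertheless had 5 higher and 7 lower members from replicates 1 and 2, and 9 higher and 0 lower from replicates 3 and 4. Among ribosomal protein genes, *RPS22B* lost a fall (0.01 in YPEG and -1.18 in YPD) and *RPL22A* gained one (-0.88 in YPEG and 0.71 in YPD), with adjusted p of 0.00115 and 0.00663 for the interaction. *FIG1*, a mating gene, was raised in both media and less in YPEG (1.13 in YPEG and 2.41 in YPD), with interactions of -1.76 and -0.78 in the sets of replicates, of which that from replicates 3 and 4 did not pass (adjusted p = 0.165). The genes named here were singled out after their values were seen.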
